A study of Mus musculus with 2 samples.

Results

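Accessible chromatin was described at the 6 mouse genes of the SoxC family (Sox4, Sox11 and Sox12) and the SoxD family (Sox5, Sox6 and Sox13). An interval of the consensus set was given to the gene with the nearest start site (TSS) among protein-coding transcripts, and 233 of the 119502 intervals (0.195%) belonged to a member. SoxC genes had 95 of them and SoxD genes 138. The rule that gives intervals to genes used no measured value, but the genes were chosen with earlier results of these data known.

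The cells were a mouse embryonic stem (ES) cell line in which mKate2, a red fluorescent protein, is made together with Olig2, the transcription factor that marks progenitors of motor neurons (Olig2-2A-mKate2). They were differentiated to day 5, the last step with 100 nM RA (retinoic acid) and 100 nM SAG, which activates Sonic hedgehog signalling, and mKate2-positive cells were sorted. ATAC-seq, which reads open chromatin through insertion of adapters by the transposase Tn5, was performed with 50000 cells per library. There was 1 group of 2 replicate libraries, which share this line, treatment and day, so no comparison of conditions could be made. The labels do not say whether the replicates came from separate cultures, and the spread between them may be technical. The label NPs (neural progenitors) covers cells chosen by a reporter, and per the study's text such a sort also holds young motor neurons and some cells positive for both OLIG2 and NKX2.2.

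SoxC proteins are transcriptional activators best known in neuronal differentiation, where Sox4 and Sox11 are active in cells that leave the progenitor state. All 3 SoxC genes are encoded by a single exon. SoxD proteins lack an activation or repression domain of their own, dimerise through a coiled coil and bend DNA through the HMG box shared by all Sox proteins. Sox5 and Sox6 are known for roles in cartilage, in neural progenitors and in the timing of oligodendrocyte development, and Sox13 was first described as an autoantigen and is known in T cell development.

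The libraries held 31876165 and 31672240 counts in intervals, of which 70502 and 70457 (0.221% and 0.222%) were in member intervals. A member interval had between 6 and 4748 counts in a library, with a median of 68 in replicate 1 and 71 in replicate 2, and none was at 0. Counts were divided by DESeq2 size factors, and a density is the normalised count per kb of interval. Marker lists were read at promoters. A TSS interval, which is an interval that overlaps a protein-coding start site, was found for 6 of 6 progenitor genes (Sox1 and Sox2 among them), and 4 of the 6 exceeded the median promoter density of 853 normalised counts per kb, including Olig2 with 963 and 930. For motor neuron genes the numbers were 5 of 6 and 1 above the median. Among fibroblast genes, relevant because ES cells were kept on feeder fibroblasts, 2 of 5 had a TSS interval and none was above the median, and Col1a1, Col3a1 and Postn had none. For pluripotency genes it was 1 of 3, with none at Pou5f1 and Nanog, and for neuromesodermal genes 2 of 3, again with none above the median.

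The sequences that follow are the central 300 bases of the distal interval with the highest density at each gene, where distal means that it overlaps no protein-coding start. They are shown because every gene had at least 1 distal interval with a density at or above that of its own promoter, and they were read from the plus strand of the mouse assembly GRCm38 (mm10), 5′ to 3′. Capitals mark a SOX motif (ACAAAG or ACAATG) or an E-box (CAGCTG or CAGATG or CATATG) on either strand, so that CATTGT and CATCTG are the reverse strand of ACAATG and CAGATG.
Sox4, chr13:28782314-28782613: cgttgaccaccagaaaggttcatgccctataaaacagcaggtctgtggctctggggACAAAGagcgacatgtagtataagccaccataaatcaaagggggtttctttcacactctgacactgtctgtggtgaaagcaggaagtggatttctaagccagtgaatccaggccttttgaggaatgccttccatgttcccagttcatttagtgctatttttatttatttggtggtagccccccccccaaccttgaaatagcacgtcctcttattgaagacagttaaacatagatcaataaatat
Sox11, chr12:27151185-27151484: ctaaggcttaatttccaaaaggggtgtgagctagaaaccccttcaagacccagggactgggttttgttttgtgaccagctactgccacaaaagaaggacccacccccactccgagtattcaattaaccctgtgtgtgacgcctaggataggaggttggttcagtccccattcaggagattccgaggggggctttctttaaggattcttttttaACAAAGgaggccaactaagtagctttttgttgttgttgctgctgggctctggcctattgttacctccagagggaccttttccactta
Sox12, chr2:152406097-152406396: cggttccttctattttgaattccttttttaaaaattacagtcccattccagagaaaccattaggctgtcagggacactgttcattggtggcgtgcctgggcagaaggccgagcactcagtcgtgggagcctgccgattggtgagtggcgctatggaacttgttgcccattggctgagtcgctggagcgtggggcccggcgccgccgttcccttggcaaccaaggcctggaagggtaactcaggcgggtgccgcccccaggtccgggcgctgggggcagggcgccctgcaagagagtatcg
Sox5, chr6:144155058-144155357: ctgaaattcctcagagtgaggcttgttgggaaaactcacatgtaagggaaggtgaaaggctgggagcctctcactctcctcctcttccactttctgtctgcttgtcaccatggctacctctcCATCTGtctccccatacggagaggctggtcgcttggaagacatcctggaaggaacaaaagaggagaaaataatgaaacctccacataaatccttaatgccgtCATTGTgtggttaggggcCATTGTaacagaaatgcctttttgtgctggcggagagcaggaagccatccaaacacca
Sox6, chr7:115903370-115903669: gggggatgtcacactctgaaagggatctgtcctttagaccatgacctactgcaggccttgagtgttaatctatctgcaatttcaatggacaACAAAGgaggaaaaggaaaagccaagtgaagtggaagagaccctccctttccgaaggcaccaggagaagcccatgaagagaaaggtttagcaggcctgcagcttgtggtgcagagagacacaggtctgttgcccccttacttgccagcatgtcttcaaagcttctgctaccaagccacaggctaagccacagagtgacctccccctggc
Sox13, chr1:133492762-133493061: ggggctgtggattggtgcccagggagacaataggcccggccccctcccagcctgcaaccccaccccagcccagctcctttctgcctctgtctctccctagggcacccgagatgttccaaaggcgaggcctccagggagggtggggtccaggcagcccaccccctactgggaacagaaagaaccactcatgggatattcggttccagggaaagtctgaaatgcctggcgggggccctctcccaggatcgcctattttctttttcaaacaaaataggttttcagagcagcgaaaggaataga

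The second set holds the 250 bases before selected start sites, on the minus strand, on which all 6 genes lie, 5′ to 3′, so that the last base stands next to the start. They are shown because the 5 starts inside an interval ran from the highest promoter density of a member gene (Sox12) to the lowest (Sox5), and the last Sox5 start lay in none. Capitals mark CG.
Sox12, chr2:152398064-152398313: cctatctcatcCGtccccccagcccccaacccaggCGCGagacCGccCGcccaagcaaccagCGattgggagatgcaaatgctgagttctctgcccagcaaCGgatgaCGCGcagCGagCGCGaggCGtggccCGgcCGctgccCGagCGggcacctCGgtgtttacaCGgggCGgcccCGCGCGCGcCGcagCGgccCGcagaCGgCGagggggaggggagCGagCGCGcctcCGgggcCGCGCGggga
Sox11, chr12:27342575-27342824: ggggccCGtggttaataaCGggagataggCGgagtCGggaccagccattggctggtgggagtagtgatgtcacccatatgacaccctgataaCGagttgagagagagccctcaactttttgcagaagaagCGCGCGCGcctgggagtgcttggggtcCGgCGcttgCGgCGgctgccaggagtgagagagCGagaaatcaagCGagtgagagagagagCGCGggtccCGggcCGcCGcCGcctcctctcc
Sox4, chr13:28953714-28953963: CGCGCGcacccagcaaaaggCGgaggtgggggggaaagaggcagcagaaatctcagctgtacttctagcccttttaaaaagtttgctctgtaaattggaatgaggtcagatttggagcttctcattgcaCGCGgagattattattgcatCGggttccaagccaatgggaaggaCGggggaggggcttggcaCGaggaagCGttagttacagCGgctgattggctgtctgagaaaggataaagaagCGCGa
Sox13, chr1:133424378-133424627: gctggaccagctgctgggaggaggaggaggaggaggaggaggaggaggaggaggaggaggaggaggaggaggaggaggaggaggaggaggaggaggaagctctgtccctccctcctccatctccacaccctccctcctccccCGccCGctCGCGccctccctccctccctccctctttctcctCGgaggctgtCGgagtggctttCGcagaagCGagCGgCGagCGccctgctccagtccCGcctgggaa
Sox5 start in an interval, chr6:144209569-144209818: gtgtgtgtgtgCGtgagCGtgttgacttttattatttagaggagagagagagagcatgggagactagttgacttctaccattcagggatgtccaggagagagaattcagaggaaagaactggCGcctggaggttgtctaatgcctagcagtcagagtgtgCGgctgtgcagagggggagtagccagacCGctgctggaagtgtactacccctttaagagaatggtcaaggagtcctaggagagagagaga
Sox5 start outside any interval, chr6:143947107-143947356: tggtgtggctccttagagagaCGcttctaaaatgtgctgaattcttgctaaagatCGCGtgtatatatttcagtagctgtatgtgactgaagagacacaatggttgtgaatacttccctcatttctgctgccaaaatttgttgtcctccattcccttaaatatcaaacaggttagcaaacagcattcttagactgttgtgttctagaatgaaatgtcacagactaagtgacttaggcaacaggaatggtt

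The number of CG pairs in these 250 bases was 36 at Sox12, 21 at Sox11, 13 at Sox4, 12 at Sox13 and 5 at the Sox5 start inside an interval. At the Sox5 start outside any interval it was 3. The G and C content was 74.8% at Sox12, 62.8% at Sox11, 52.0% at Sox4, 68.8% at Sox13, and 50.8% and 39.6% at the 2 Sox5 starts.

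All 6 genes had at least 1 TSS interval, against 66.9% of the 21866 protein-coding genes. Promoter density was highest at the SoxC genes. Sox12 had 1407 normalised counts per kb in replicate 1 and 1332 in replicate 2 (1370 ± 53.2, SD, n = 2). Sox11 had 1008 and 952 (980 ± 39.7), and Sox4 had 873 and 838 (855 ± 24.2). In both libraries the order was Sox12, Sox11 and then Sox4, and the values of these genes did not overlap. Among the 14638 genes with a TSS interval, the percentile was 78.8 for Sox12, 58.7 for Sox11 and 50.2 for Sox4, next to the median of 853. The SoxD genes were at 30.9 (Sox13), 30.8 (Sox6) and 22.2 (Sox5).

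The SoxD promoters were lower. Sox13 had 584 and 570 normalised counts per kb (577 ± 10.4, SD, n = 2) and Sox6 had 600 and 552 (576 ± 33.5), so that these neighbours in the order did not differ beyond their spread. Sox5 was the lowest with 431 and 453 (442 ± 15.8), below Sox6 and Sox13 in both libraries. The value of Sox6 pools its 3 TSS intervals. Of these, the one shared with 1110004F10Rik had 412 and 405, below Sox5 in both libraries. With gene 5′ ends only the order of these genes was reversed, at 546 for Sox5 and 408 for Sox6. Every SoxC value was above every SoxD value, and 3 of 3 SoxC genes but 0 of 3 SoxD genes exceeded the median of genes with a TSS interval. With replicate 2 alone the count for SoxC was 2, since Sox4 then had 838 against a median of 839, and per interval in place of per kb 5 of the 6 genes exceeded the median.

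**Figure D1:**
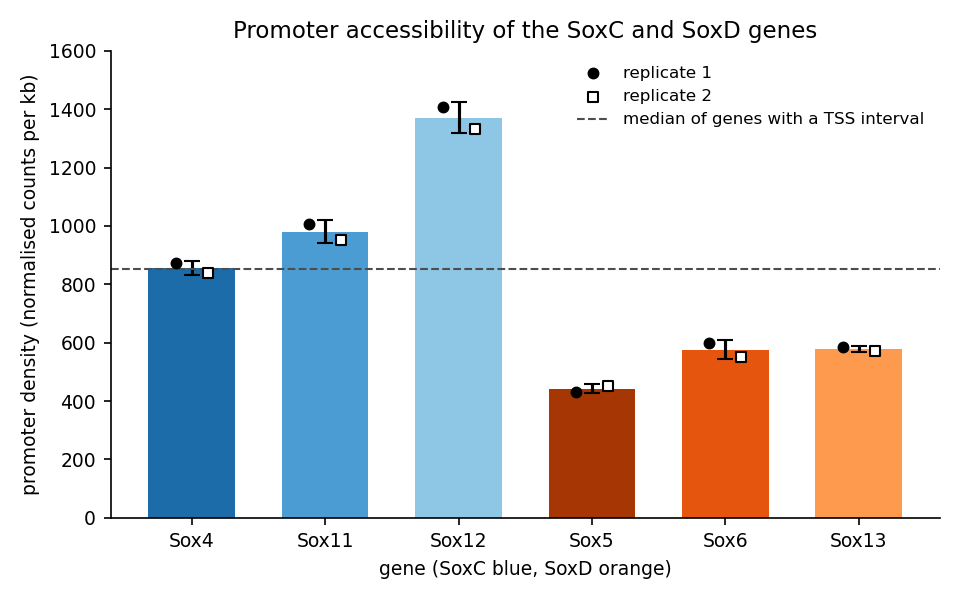
Promoter density (normalised counts per kb, y axis) of the 6 genes (x axis), with bars for the mean, error bars for the SD of 2 libraries, and a circle and a square for replicates 1 and 2. The dashed line is the median of the 14638 genes with a TSS interval (853), which the Sox11 and Sox12 libraries exceed, the Sox4 libraries straddle and the SoxD libraries do not reach.

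The SoxC genes used a single promoter each. The Sox4 interval, chr13:28952006-28954032, covered the start at 28953713 and had 1768 and 1700 counts. That of Sox11, chr12:27341178-27343815, covered the start at 27342574 and had 2658 and 2512 counts. At Sox12 both annotated starts, 152398063 and 152398046, lay in chr2:152396056-152399430, whose 4748 and 4498 counts were the highest of any member interval. These 3 genes are short (4.79, 8.31 and 4.45 kb).

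The SoxD genes are longer (Sox5 954 kb, Sox6 568 kb, Sox13 42.1 kb), have several coding starts, and only a part of these starts lay in an interval. At Sox5, 4 of 7 coding starts, between 144209452 and 144209568, shared the interval chr6:144209405-144211214, with 779 and 820 counts. The other 3, between 143947088 and 143947106, were in none, and the closest interval was at least 5216 bp away. Sox5 also has transcripts that are annotated as retained intron or processed transcript and start at 144781977 and 144781919. Those starts lay in an interval, chr6:144781293-144783099, with 950 and 1023 counts and a density of 546, which the rule gives to Bcat1 because the nearest protein-coding start is that gene's, 250 kb away. This interval was singled out after its values were seen.

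At Sox6, 3 of 8 coding starts lay in intervals. The start at 116038744 was in chr7:116038685-116040688 (825 and 811 counts, density 408), which also covered the start of 1110004F10Rik, so its counts cannot be divided between the genes. The start at 116031047 was in chr7:116030916-116034841 (2525 and 2282 counts, density 612), which also held the start of the antisense gene Sox6os. The most internal of the 3, at 115824710, was in chr7:115824380-115825506 and had the highest density of the Sox6 promoters, 748, with 880 and 806 counts. It had 2 CG pairs in the 250 bases before it, against 9 and 10 at the other open starts. The 5 starts at 115995086, 115859852, 115846140, 115846105 and 115662365 lay in no interval, and the closest interval was between 1199 and 28144 bp away.

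Sox13 had 3 coding starts. The one at 133424377 lay in chr1:133422567-133424817, with 1315 and 1283 counts. The starts at 133393270 and 133393218 lay in none, and the closest interval was 4081 and 4133 bp away. Starts without an interval had between 2 and 6 CG pairs before them at the 3 SoxD genes, and starts with one between 2 and 12. Over all 8 TSS intervals of members the median G and C content was 61.1% and the observed over expected CpG ratio 0.694, against 59.9% and 0.680 over all TSS intervals.

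The promoters were a small part of the intervals at these genes. Sox5 had 61 intervals, Sox6 58, Sox4 46, Sox11 46, Sox13 19 and Sox12 3, where the median protein-coding gene had 3. In percentiles of all genes this was 99.7 for Sox5 and Sox6, 99.3 for Sox4 and Sox11, 93.8 for Sox13 and 47.4 for Sox12. These numbers rest on the nearest start, since only 4 intervals at Sox4, 3 at Sox11, 9 at Sox13, 38 at Sox6 and 2 at Sox12 overlapped the gene or its 5 kb flanks. Sox5 had 61 by either rule, but these were not the same intervals. By the nearest start 48 of the 61 were inside Sox5, while 4 in 1700060C16Rik and 9 in no gene lay beyond its flanks. The stretch of chromosome in which a member had the nearest start was also long, at 1064 kb for Sox5, 1040 kb for Sox11, 811 kb for Sox6, 609 kb for Sox4 and 138 kb for Sox13, but 19.2 kb for Sox12 (median gene 46.5 kb). Per 100 kb of that stretch there were 15.6 intervals at Sox12, 13.8 at Sox13, 7.56 at Sox4, 7.15 at Sox6, 5.73 at Sox5 and 4.42 at Sox11, against 4.43 over all genes. Intervals were closest together at the 2 genes with the shortest stretch, and their spacing at Sox11 was close to that over all genes.

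A mean normalised count over 100 was reached by 97 of 233 member intervals (41.6%), against 38.8% of all intervals. By gene these were 24 of 46 at Sox4, 15 of 46 at Sox11, 3 of 3 at Sox12, 21 of 61 at Sox5, 22 of 58 at Sox6 and 12 of 19 at Sox13. The share was lowest at Sox11 (32.6%) and, after Sox12, highest at Sox13 (63.2%).

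Distal intervals numbered 225. Their median density was 148 normalised counts per kb in replicate 1 and 158 in replicate 2 (153 ± 7.05, SD, n = 2), and that of all 104632 distal intervals was 123 and 126. Both member libraries were above both values of the whole set. At SoxC genes the medians were 145 and 146, and at SoxD genes 152 and 163. By gene the mean of the 2 library medians was 165 ± 2.18 at Sox4, 125 ± 11.4 at Sox11, 137 ± 1.93 at Sox5, 156 ± 9.51 at Sox6 and 295 ± 15.9 at Sox13, and 1172 ± 83.9 over the 2 distal intervals of Sox12 (SD, n = 2).

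**Figure D2:**
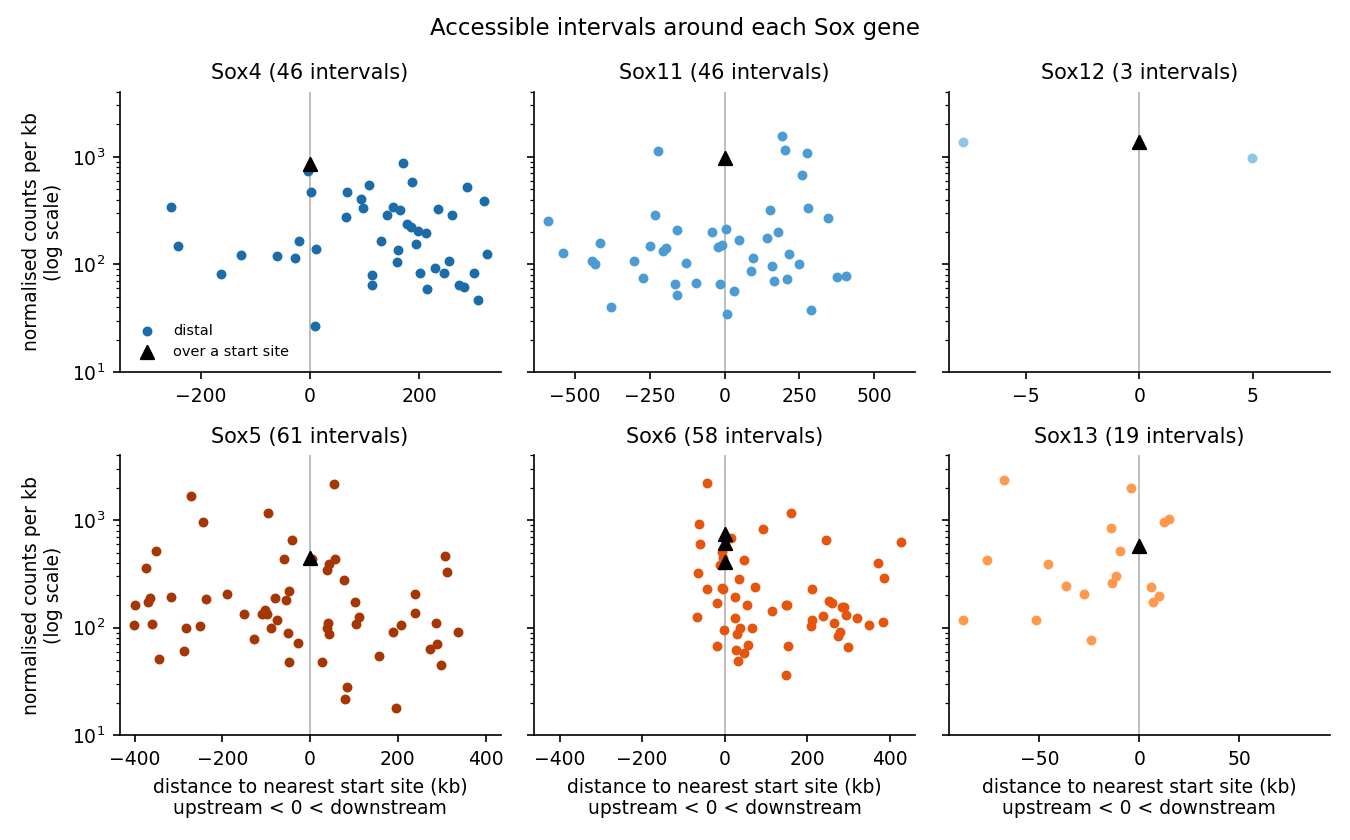
Each point is an interval of the gene named above the panel, with its distance in kb from the nearest start of that gene (x axis, upstream negative, scaled per panel) and its mean density in normalised counts per kb (y axis, log scale). Triangles are TSS intervals, and at every gene at least 1 distal interval (circles) reaches the height of the lowest triangle, up to 2350 at Sox13.

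A density above that of the median TSS interval (799 normalised counts per kb) was found in 20 of the 225 distal member intervals (8.89%), against 3.16% of all distal intervals. Sox13 had 5 of these in 18, Sox5 4 in 60, Sox6 4 in 55, Sox11 4 in 45, Sox12 2 in 2 and Sox4 1 in 45. The density of the own promoter was exceeded by 8 distal intervals at Sox6, 7 at Sox5, 5 at Sox13, 4 at Sox11, 1 at Sox4 and 1 at Sox12.

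The densest member interval was that of Sox13 whose centre is printed above, chr1:133492069-133493753. It was intergenic, 67.7 kb upstream of the start, and had 3982 and 3938 counts (2350 per kb, against 577 at the promoter). It alone held 41.5% and 40.6% of the distal counts of Sox13, and none of its central 300 bases matched the SOX or E-box letters. The next, in an intron of Sox13 at chr1:133397351-133398356, had 1967 and 2001 counts (1972 per kb) and lay 4.08 kb upstream of the internal starts that were in no interval. Another intronic interval, chr1:133408813-133409407, had 609 and 603 counts (1018 per kb).

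At Sox6 the densest distal interval, chr7:115903236-115903802, was intronic and 43.4 kb from a start, with 1298 and 1230 counts (2229 per kb). It held 1 SOX motif in its centre. Farther into the gene, chr7:115501097-115502147 had 1230 and 1245 counts (1177 per kb) at 160 kb, and chr7:115723834-115724098 had 231 and 258 counts (923 per kb). All 3 had a density over that of each of the 3 Sox6 promoters in both libraries.

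At Sox5 the densest distal interval, chr6:144154868-144155547, overlapped a coding exon of the gene 53.9 kb downstream of the start, with 1421 and 1542 counts (2179 per kb). Its centre held 2 SOX motifs and 1 E-box, more than that of any other gene printed above. An interval 271 kb upstream, chr6:144480603-144481601, covered the start of the antisense gene Sox5os2 within Sox5 and had 1641 and 1705 counts (1675 per kb). The third, chr6:144042827-144043648, was intronic and had 977 and 946 counts (1170 per kb). All 3 exceeded the Sox5 promoter (442) in both libraries.

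Among the SoxC genes, the single densest distal interval was at Sox11. This interval, chr12:27150871-27151797, lay 191 kb downstream in an intron of the non-coding gene Gm9866 and had 1499 and 1409 counts (1569 per kb). In an exon of the same gene, chr12:27139269-27140713 had 1632 and 1711 counts (1157 per kb). On the other side, 223 kb upstream, the intergenic interval chr12:27565908-27566691 had 910 and 857 counts (1127 per kb). The 3 distal intervals of Sox11 with the most counts held 46.8% and 46.7% of its distal counts.

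At Sox4 the densest distal interval, chr13:28781740-28783187, lay 171 kb downstream in an intron of the non-coding gene 2610307P16Rik and had 1219 and 1318 counts (876 per kb). Its library values overlapped those of the Sox4 promoter (855 ± 24.2). The next, chr13:28957882-28959943, was 4.17 kb upstream of Sox4 and had 1564 and 1455 counts (732 per kb), and chr13:28765981-28766603, again in 2610307P16Rik, had 346 and 381 (583 per kb). Counts at Sox4 were spread more evenly than at Sox11, with 33.0% and 32.3% of the distal counts in the 3 distal intervals with the most.

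Sox12 had only 2 distal intervals. The upstream one, chr2:152405843-152406650, was 7.78 kb away and had 1103 and 1116 counts (1373 per kb), within the spread of the promoter (1370 ± 53.2). The downstream one, chr2:152392937-152393091, was 4.96 kb away, 155 bp long and had 170 and 131 counts (971 per kb). TSS counts therefore made up 78.6% of all counts at Sox12, against 26.0% at Sox6, 13.3% at Sox4, 11.9% at Sox13 and 6.27% at Sox5 (means of 2 libraries). At Sox11 the library values were 21.5% and 20.6%. The share of Sox6 counts in full the interval that also covers the start of 1110004F10Rik.

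Summed over distal intervals, 5 genes were within a narrow range in spite of their different numbers of intervals. The sums were 11662 and 12253 normalised counts at Sox5, 11585 and 11486 at Sox6, 11189 and 11336 at Sox4, 9719 and 9693 at Sox11, and 9599 and 9707 at Sox13. Sox5 exceeded Sox6 and Sox4 in both libraries, Sox6 exceeded Sox4 in both, and Sox11 and Sox13 could not be put in an order. At Sox12 the sums were 1274 and 1246.

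Many distal member intervals lay far from a start site. The median distal interval was 151 kb from the nearest start, against 33.6 kb over all distal intervals. More than 100 kb away were 130 of 225 (57.8%), against 24.8% of all distal intervals. These were 34 of 45 at Sox4, 34 of 45 at Sox11, 36 of 60 at Sox5, 26 of 55 at Sox6 and 0 at Sox12 and Sox13. The long stretches without another protein-coding start, given above, bound these distances, since an interval cannot be given to a member where another gene's start is nearer.

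**Figure D3:**
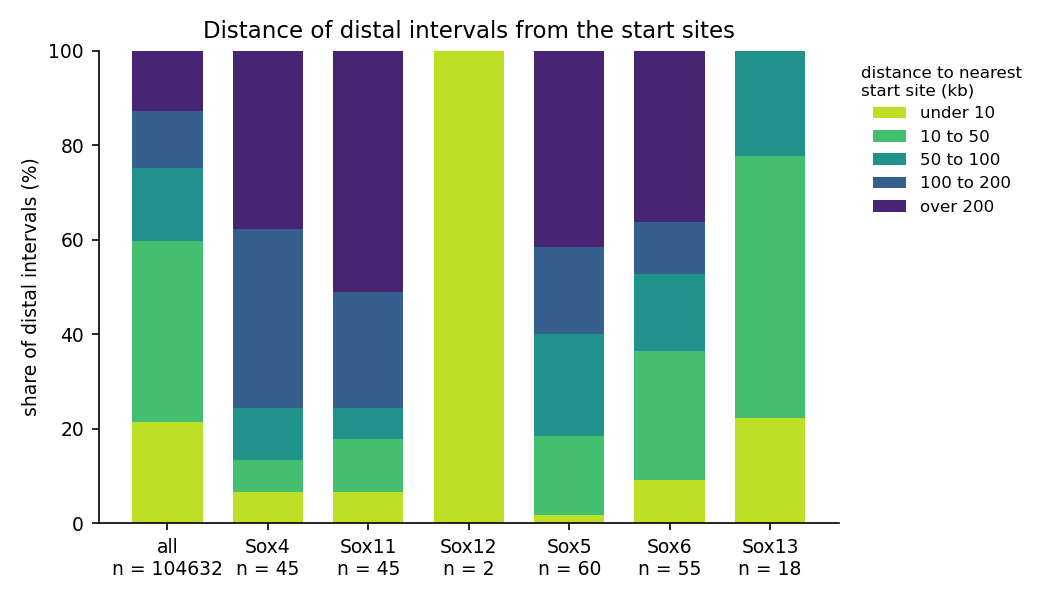
Share of distal intervals (y axis, %) in 5 classes of distance to the nearest protein-coding start, for all 104632 distal intervals and for each gene, with the number of intervals below each bar. Intervals over 200 kb away make up 12.8% of the whole set but 51.1% at Sox11, 41.7% at Sox5, 37.8% at Sox4 and 36.4% at Sox6.

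The most distant interval was 590 kb upstream of Sox11, chr12:27932369-27933243, with 207 and 238 counts (254 per kb). At Sox6 it was 428 kb downstream (chr7:115233747-115234424, 416 and 438 counts, 630 per kb) and at Sox4 324 kb downstream (chr13:28629697-28630147, 54 and 58 counts). At Sox5 it was 402 kb upstream of the nearest coding start (chr6:144611515-144611790, 32 and 27 counts), but still in an intron of Sox5. At Sox13 it was 88.4 kb upstream (chr1:133512786-133513045, 36 and 26 counts), and at Sox12 it was the upstream interval already given.

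Intervals were unevenly placed around some starts. Sox4 had 37 downstream and 8 upstream, and 33 of its 46 intervals were inside 2610307P16Rik. Sox6 had 41 downstream and 14 upstream, and 37 of its 58 intervals were inside Sox6 alone. All 14 upstream ones were in introns of Sox6, upstream of internal starts only. Sox13 had 13 upstream and 5 downstream. Sides also depend on where the next gene's coding start lies. It was 868 kb away downstream and 0.653 kb upstream at Sox6, and 27.9 kb and 186 kb at Sox13. At Sox4 these distances were less unequal, 696 kb and 521 kb. Sox11 had 22 upstream and 23 downstream, and 35 of its 46 were in no annotated gene, with 9 more in Gm9866. Of the 61 intervals of Sox5, 48 were inside Sox5. Intronic intervals made up 63.9% of the distal ones at SoxD genes and 45.7% at SoxC genes, and intergenic ones 30.1% and 47.8%, while the shares over all distal intervals were 45.1% and 40.2%.

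Coding exons were overlapped by 3 of 225 distal member intervals (1.33%), against 7.85% of all. Other properties were close to the whole set. The median distal length was 481 bp against 463 bp, the median G and C content 46.9% against 48.4%, and the median repeat content 8.91% against 9.04%. Outside masked repeats, no member interval had a match of 100 bp or longer elsewhere on the chromosomes with an identity of 90% or higher.

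Sox proteins bind the letters ACAAAG and ACAATG, and these were searched on both strands in the central 300 bases of each interval. A match is a description of the sequence and not a bound site. Of the 233 member intervals 121 (51.9%, 95% Wilson interval 45.5 to 58.3%) held one, against 44.9% of all intervals, which include more TSS intervals, where the share was 17.6%. In distal intervals the shares were 52.9% (119 of 225, 46.4 to 59.3%) and 48.7%.

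By gene, the share of distal intervals with a SOX motif was 66.7% at Sox5 (40 of 60, 54.1 to 77.3%) and 72.2% at Sox13 (13 of 18, 49.1 to 87.5%). It was 47.3% at Sox6 (26 of 55, 34.7 to 60.2%), 46.7% at Sox4 (21 of 45, 32.9 to 60.9%) and 42.2% at Sox11 (19 of 45, 29.0 to 56.7%). Neither distal interval of Sox12 held one. The Wilson intervals of Sox5 and Sox13 lay above the share of 48.7% in all distal intervals, and those of the other genes included it. They treat neighbouring intervals of 1 gene as independent.

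**Figure D4:**
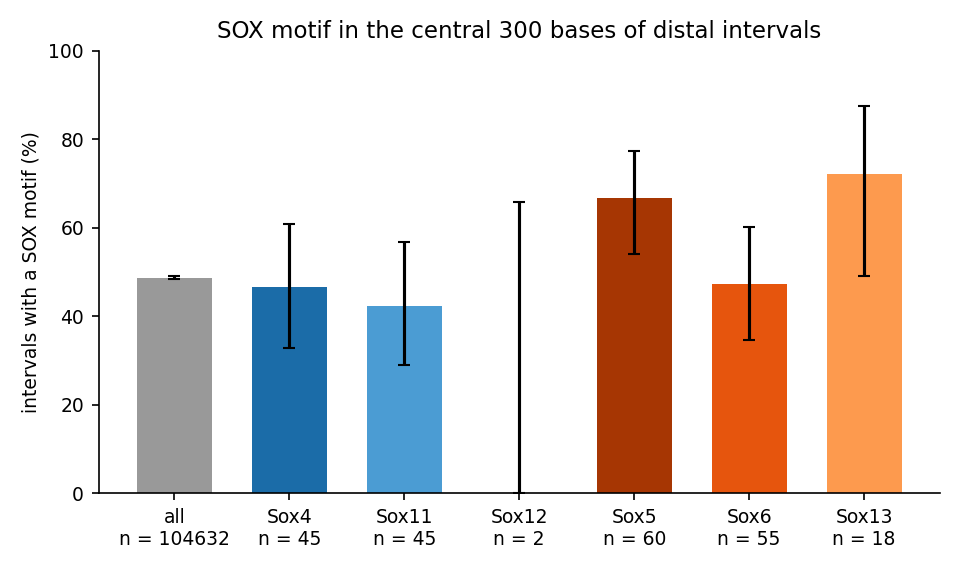
Share of distal intervals (y axis, %) with ACAAAG or ACAATG on either strand in the central 300 bases, for all distal intervals and each gene, with the number of intervals below each bar and error bars for the 95% Wilson interval. The shares of Sox5 (66.7%) and Sox13 (72.2%, lower limit 49.1%) are above that of all distal intervals (48.7%), and the 2 intervals of Sox12 hold none.

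E-box letters were present in 48.0% of distal member intervals and 47.9% of all distal intervals. The homeodomain letters TAATTA were found in 5.78% against 7.79%, and the POU letters ATGCAAAT in 2.67% against 2.25%. GLI letters (GACCACCCA), read by the effectors of Sonic hedgehog, were in 2 intervals (0.889% against 0.497%), both at Sox4. CTCF letters (CCANNAGNNGGC), searched after the values were seen, were in 4 (1.78% against 6.16%), and 0 of 92 distal intervals of SoxC genes held them.

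The 2 libraries were then compared interval by interval. The exact two-sided binomial test of each interval's counts, adjusted by Benjamini-Hochberg over all 119502 intervals with a limit of 0.01, called 0 of 233 member intervals and 0% of all. It compares the libraries, not conditions. An unadjusted p under 0.05 was found in 25 member intervals (10.7%), against 8.39% of all. The smallest adjusted p of a member in this exact test was 0.201, at the Sox6 promoter chr7:116030916-116034841. With edgeR TMM factors 6 intervals were called over the whole set and 0 of the members.

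Among member intervals over 100 normalised counts, the SD of the log2 ratio between replicates was 0.16, against 0.14 for all such intervals, and none differed over 1.5-fold. The largest difference was in 2610307P16Rik near Sox4 (chr13:28787055-28787434), with 141 and 101 counts (log2 ratio of replicate 2 to replicate 1 -0.48). The next were near Sox5, at chr6:143633799-143634176 with 107 and 145 counts (0.43) and chr6:144264241-144264834 with 93 and 122 counts (0.39). None passed the adjusted limit.

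**Figure D5:**
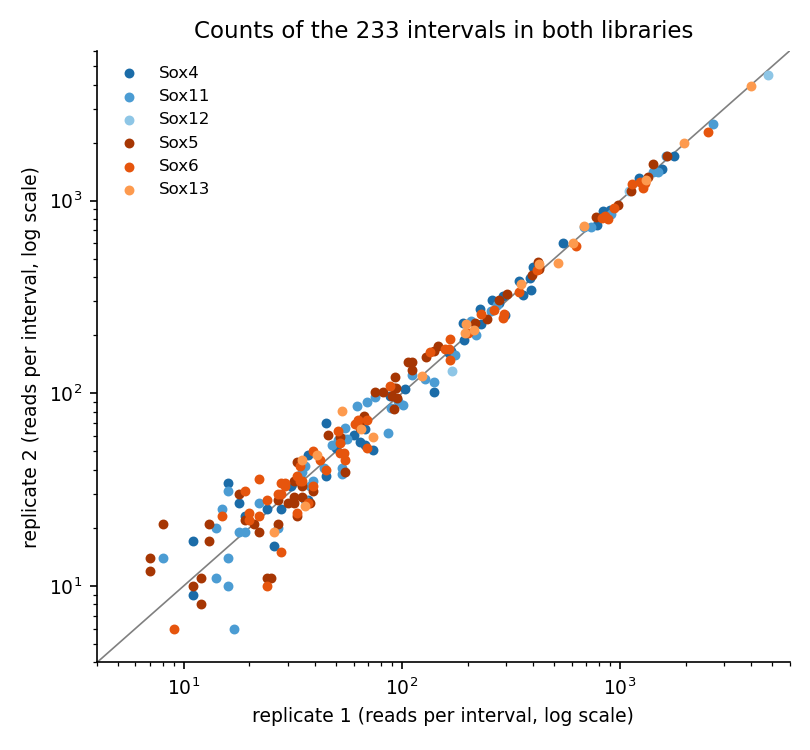
Counts of the 233 member intervals in replicate 1 (x axis) and replicate 2 (y axis), both on log scales, coloured by gene, with a line of equal counts. Points over 100 counts follow the line closely, and the scatter is wider at the low end, down to 6 counts.

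The other 13 Sox genes give the range within the same protein family. All 13 had a TSS interval, and 3 of them were above the median promoter density. These were Sox1, a SoxB1 gene of neural progenitors, with 1550 and 1447 normalised counts per kb, Sox8, a SoxE gene, with 1151 and 1052, and Sox2, the SoxB1 gene of neural and pluripotent stem cells, with 880 and 843. Sox1 thus had a higher value than Sox12 in both libraries, and Sox8 lay between Sox11 and Sox12. The lowest was Sox10, a SoxE gene of neural crest and oligodendrocytes, with 114 and 102, below every SoxC and SoxD gene. They had between 2 and 77 intervals each, the highest number being at Sox2 and the next, 74, at Sox9.

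Of 8 genes linked to SoxC proteins as partners or targets, all had a TSS interval and 3 were above the median. Those were Prox1 (993 and 930), the POU partner Pou3f2 (970 and 948) and Neurog2 (857 and 869), a proneural gene. Neurog2 was below the median of replicate 1 alone (868) and above that of replicate 2 (839). Tubb3, a neuronal tubulin regulated by SoxC proteins, had 715 and 713, and Dcx, a marker of young neurons, 70.9 and 81.9. Of 7 cartilage genes known as joint targets of SoxD proteins and Sox9, 4 had a TSS interval and 0 were above the median. The highest of these was Comp with 844 and 828, and Col2a1 had 597 and 604, while Matn1, Col9a1 and Hapln1 had no TSS interval.

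Genes most like each member were found by the distance between z-scored log2 promoter density, number of intervals and summed distal counts over the 14638 genes with a TSS interval, from the mean of both libraries. The nearest was Rere for Sox4 (distance 0.0677), Cdh6 for Sox11 (0.0919), Ripor1 for Sox12 (0.0280), Zeb2 for Sox5 (0.159), Med13l for Sox6 (0.169) and Mreg for Sox13 (0.109). Rere, for example, had 44 intervals and a promoter density of 853, against 46 and 855 at Sox4. Summed distal counts were less alike and lower at each nearest gene than at its member. They were 9776 at Rere against 11262 at Sox4, and 7349 at Med13l against 11536 at Sox6.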

How the data were processed

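ATAC-seq was analysed for 2 libraries of 1 group. The authors deposited raw counts per consensus interval, made per the file header with featureCounts 2.0.1 on fragments, each counted in every interval it overlapped by a fraction of at least 0.2. The submitters' processing notes name mm10, and the study's methods name nf-core atacseq 1.2.0. A fragment can thus enter more than 1 interval, and weak regions are missing where no peak was called. The intervals were defined over 5 libraries, and the 3 value columns of no sample here were not used. Interval starts are as deposited and may count from 0, an error of 1 base.

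Normalisation used the size factors of DESeq2 1.42.0. Start sites were those of protein-coding transcripts in GENCODE M21 (GRCm38), with the distance taken from the nearest edge. A value per gene is a mean ± SD over the libraries. Sequences came from the RefSeq copy of GRCm38. Motif windows of 300 bases run past the ends of shorter intervals. The exact binomial test recovered 182 of 200 intervals (91.0%) simulated with 2-fold changes among 119502, with 0 false calls; the changed ones all had over 100 normalised counts, so this does not describe weaker intervals. The Wilson intervals are for shares of consensus intervals with a motif and do not cover error in read counts. The binomial test allows for counting error only, and reads carried no molecular identifiers.

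The members and lists were chosen with earlier results of these data known. By rule the text names the members, their start sites, for each the 3 densest distal intervals over 100 normalised counts and the most distant one, the 3 largest replicate differences, listed genes and the most similar gene. Alternatives covered normalisation (edgeR 4.0.16 TMM, total counts), start sites, interval assignment, filters, length scaling, windows and single replicates. Python 3.11.15, scipy 1.17.1, pysam 0.24.0 and BLAST+ 2.17.0 were used.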

Additional observations from a re-analysis of the deposited data

How the results depend on the processing

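The number of member intervals was between 229 and 232 with gene 5′ ends only, midpoint distances or a mean of at least 10 normalised counts (231), but 117 when an interval had to overlap the gene body or its 5 kb flanks, with 4 left at Sox4, 3 at Sox11, 9 at Sox13 and 38 at Sox6. These 4 were the only interval numbers per gene, of 24 under an alternative, to move by over 1.5 times. The number of genes above the promoter median was 5 with counts per interval (3 per kb), and between 2 and 3 when each replicate was left out; with gene 5′ ends only it was 2. The share of member intervals with a SOX motif was 39.9% in the central 200 bases (34.6% of all intervals) and 69.1% over whole intervals (62.8% of all), against 51.9% in 300 bases. Gene 5′ ends only gave a promoter density of 546 at Sox5 and 408 at Sox6, so that Sox6 and not Sox5 was then the lowest. The other 34 of 36 densities per gene moved by no more than the SD between replicates. Where 1 of the 2 libraries was left out this was fixed in advance, since the mean then cannot move by more than that SD. The cause of the differences between settings was not tested. Intervals over 100 normalised counts numbered between 97 and 102 when each replicate was left out. No paired analysis was possible because the labels give 1 group only. Depth limits intervals near the lowest count of 6, where the libraries scatter most.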
